A study of Mus musculus with 122 samples.

Results

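The comparison described here asked which transcripts changed when endogenous CTCF was removed and nothing was put in its place, in the mouse embryonic stem cell line built to express CTCFL. It used the 6 RNA-seq libraries of that line that received no doxycycline (Dox), 3 labelled untreated (U) and 3 labelled I, for the auxin indole-3-acetic acid (IAA), out of 38 RNA libraries and 122 samples of all assays in the series. The cells were E14Tg2a, a male line of 129/Ola background, with both Ctcf alleles fused to an auxin-inducible degron (AID) and eGFP, the plant F-box protein TIR1 expressed from Rosa26, and a Dox-inducible Flag-CTCFL-mRuby2 transgene at the Tigre locus. Both groups carried all of these alleles, so the untreated cells also made CTCF-AID and TIR1, and the transgene was not induced in either. They were grown without feeder cells in serum with LIF and with inhibitors of MEK and of GSK3. IAA was given at 500 µM, for 24 h by the sample labels and for 2 days by the treatment protocol, and the files do not settle which. The line is an engineered clone, no untagged parental cells treated with IAA were analysed here, and exposure to IAA and loss of CTCF therefore cannot be told apart in this comparison.

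CTCF is a zinc finger protein that binds a long, directional DNA motif, often near promoters and at the borders of topologically associating domains, where it halts loop extrusion by the cohesin ring. CTCFL (also called BORIS) is its germline paralogue, which shares the zinc fingers but not the ends of the protein. In auxin systems the AID-tagged protein is ubiquitinated by the TIR1 ligase and destroyed by the proteasome, so the transcript of the tagged gene does not report how much protein is left.

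Of 52459 genes listed, 16840 had a mean of at least 10 normalized reads and were tested with limma on log2(value + 1), and a gene is called risen or fallen at an adjusted p under 0.01 with a log2 fold change beyond 1 in size. Libraries held 18820806 to 25734926 recovered reads in the U group and 23675494 to 26291116 in the I group. All 8 embryonic stem cell markers were expressed, with summed levels of 129478 to 137592 normalized reads in U and 98468 to 104210.1 in I. The 8 fibroblast markers summed to 1242 to 1471 in U and 1799 to 2053 in I. Among them Col1a1 (228 to 288 in U, 446 to 511 in I), Pdgfrb (412 to 448 and 585 to 735) and Thy1 (505 to 768 and 586 to 796) were expressed. Col1a2, Col3a1 and Postn did not exceed 26.7, and Dcn and Lum were at 0 in all 6 libraries. No label says that replicates were separate cultures, so p-values measure the spread between these libraries, which may be technical. In bulk RNA, fewer cells expressing a gene and less RNA per cell cannot be told apart.

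Removing CTCF by IAA left the Ctcf transcript in place. It stood at 4644, 5270.0 and 5278 normalized reads in the U libraries and at 5020.4, 4848 and 4695 in the I libraries, 2 ranges that overlap (log2 fold change -0.06, limma adjusted p = 0.543). As the degron acts on the protein, this value says nothing about depletion. Ctcfl, at 193, 225 and 206 in U and 221, 203 and 177 in I, also overlapped (-0.06, adjusted p = 0.703). The transgene holds Ctcfl coding sequence, so these counts do not separate it from the endogenous gene.

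Across the transcriptome 622 genes rose (3.69% of those tested) and 991 fell (5.88%), so 61.4% of the 1613 called genes were lower after IAA. The median log2 fold change was 1.45 among the risen and -1.71 among the fallen, against 0.04 over all genes tested. The larger changes were mostly decreases: 147 genes fell and 40 rose by more than 3 log2 units, and 28 fell and 6 rose by more than 4. The groups did not overlap for 1611 of the 1613 called genes, and they did not overlap for 51.8% of all genes tested. Just inside the fold threshold, 372 called genes had a change of 1 to 1.2 log2 units, and just outside it 509 genes passed the adjusted p with a change of 0.8 to 1.

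The genes that fell most, taken among called genes with a mean of at least 100 normalized reads, went to between 4.77% and 7.45% of their untreated mean. Cc2d2a (chr5:43662346-43740972, GRCm38, plus strand), a protein of the transition zone at the base of the cilium, was at 214, 244 and 219 in U and at 16.8, 11.98 and 3.62 in I (log2 fold change -4.47 ± 0.40 SE, limma adjusted p = 9.65e-09). Ryr2 (chr13:11553102-12106945, minus strand), the calcium release channel of heart muscle, was at 296, 253 and 423 in U and at 11.2, 17.96 and 17.2 in I (-4.30 ± 0.30, adjusted p = 1.95e-10). Tenm4 (chr7:96171246-96911093, plus strand), a teneurin of the cell surface, fell from 1166, 1114 and 1426 to 83.9, 63.9 and 46.2 (-4.27 ± 0.18, adjusted p = 1.14e-13). Only genes whose U and I libraries do not overlap were taken here, so that separation was set by the choice.

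Mob3b, a MOB family kinase regulator, fell by 4.18 on the log2 scale, and Fmn2, a formin that nucleates actin filaments, by 4.06, with 516, 493 and 529.5 normalized reads in U and 56.0, 19.0 and 24.4 in I. Grik4, a kainate receptor subunit, had a log2 fold change of -3.97, and Col27a1, a fibrillar collagen, one of -3.94. Slit2, a secreted ligand of the Robo guidance receptors, went from 871, 909 and 1112 to 52.2, 80.8 and 72.4 (-3.81 ± 0.24). Elmo1, a partner of DOCK proteins in Rac activation, changed by -3.78, and Ppp1r9a, which encodes the actin-binding protein neurabin, by -3.73. Of these 10 genes, 9 span more than 100 kb of the genome, and Cc2d2a spans 78.6 kb.

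The genes that rose most were compact. Pear1 (chr3:87747890-87824306, minus strand), a receptor of platelets and endothelium, was at 22.9, 24.7 and 29.03 in U and at 231, 221 and 221 in I (3.09 ± 0.27, limma adjusted p = 7.65e-09). Ocel1, which holds an occludin and ELL domain, rose from 124, 93.9 and 97.5 to 528, 778 and 780.1 (2.70 ± 0.17). Serpinb9, an inhibitor of granzyme B, went from 64.6, 69.2 and 67.3 to 467, 346 and 431 (2.6004 ± 0.22). Angptl2, a secreted angiopoietin-like protein, rose by 2.61 on the log2 scale, Prrt3 by 2.42, the neuropeptide precursor Vgf by 2.33 and the ADP-ribosyltransferase Parp3 by 2.30. The other 3 were Usp17lb, Usp17le and Zscan4d, members of multicopy families described with the 2-cell-stage genes. The longest of the 10 risen genes, Pear1, spans 76.4 kb.

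**Figure D1:**
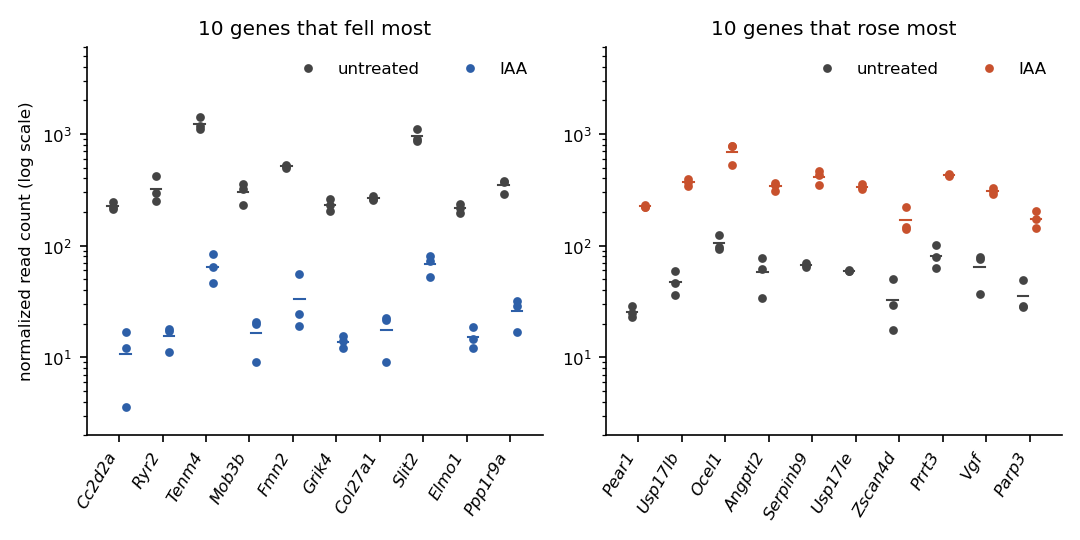
Normalized read counts (log axis) in each of the 3 untreated and 3 IAA libraries of the CTCFL line, for the 10 genes with the largest decrease (left) and the 10 with the largest increase (right) among called genes with a mean of at least 100, leaving out unnamed gene models. Each point is a library and each short line a group mean. Only genes whose groups do not overlap were taken, so the separation of the points was set by the choice.

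The contrast in span between these genes held over the whole table. It was noticed after the values were seen, and it is given as a description. Among the 14415 protein-coding genes with a position, 956 fell (6.63%) and 552 rose (3.83%). The median genomic span, from first to last annotated base, was 192 kb for the fallen, 12.9 kb for the risen and 23.8 kb for all. The median log2 fold change was 0.23 for genes of up to 5 kb, 0.21 for 10 to 20 kb, 0.07 for 20 to 50 kb and -0.18 for 50 to 100 kb. It went on to -0.57 for 100 to 200 kb, -1.44 for 200 to 400 kb and -2.27 beyond 400 kb.

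Calls followed the same gradient. In genes of 10 to 20 kb, 22 of 2863 fell (0.768%) and 174 rose (6.08%). Between 100 and 200 kb, 296 of 1216 fell (24.3%) and 6 rose. Beyond 400 kb, 152 of 208 fell (73.1%) and none rose. Taking all 702 genes over 200 kb together, 450 fell (64.1%), 1 rose and 665 had a log2 fold change below 0. The Spearman rank correlation between span and log2 fold change was -0.453 over the 14415 genes, which share the same 6 libraries and are not independent replicates.

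**Figure D2:**
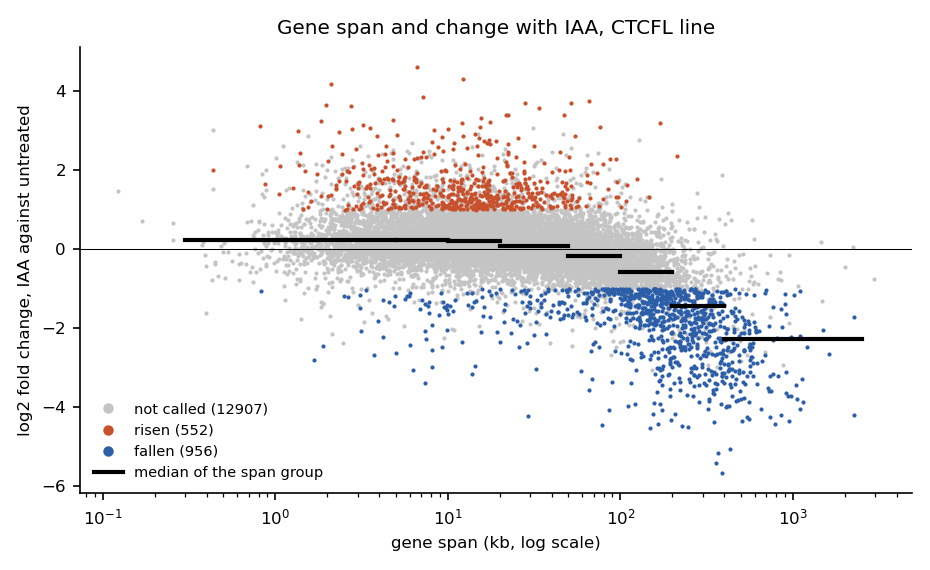
Genomic span (kb, log axis) against log2 fold change with IAA for 14415 protein-coding genes in the CTCFL line. Each dot is a gene, coloured by its call, and black lines give the median of each span group. The medians run from 0.23 in the shortest group to -2.27 beyond 400 kb, where 152 of 208 genes fell.

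Expression level and transcript length were set beside span. Genes over 200 kb fell in 61.8% of cases at a mean of 10 to 100 normalized reads, in 74.7% at 100 to 1000 and in 54.5% above 1000, while genes of up to 20 kb fell in 1.18%, 1.46% and 0.391% at the same levels. Summed exon length sorted the genes less than span did. Within genes over 100 kb, 33.3% fell where the exons summed to at most 2 kb and 40.96% where they exceeded 8 kb, and within genes of up to 20 kb those shares were 0.888% and 0%. The rank correlation with the log2 fold change was -0.271 for exon length and -0.211 for level.

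The same shift can be described without any call, in the same 6 libraries. Shares are of the normalized reads of tested protein-coding genes with a position. Genes over 200 kb took 1.98%, 2.06% and 2.21% of these in the U libraries and 1.05%, 1.01% and 0.927% in the I libraries. The means were 2.08% ± 0.117 (SD, n = 3) and 0.998% ± 0.0645 (SD, n = 3), and the groups did not overlap. The span groups were chosen after these libraries were seen, so the separation is a description and no test is given. Genes of up to 20 kb took 47.01%, 46.001% and 44.5% in U and 47.3%, 48.95% and 50.5003% in I. Their means were 45.8% ± 1.28 (SD, n = 3) and 48.9% ± 1.62 (SD, n = 3), a narrower separation that again did not overlap.

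The other lines of the series gave the gradient again after IAA. These lines have the same AID and TIR1 alleles and are separate clones. Each holds another silent transgene: CTCF, LCL (CTCF zinc fingers between the ends of CTCFL) or CLC (CTCFL zinc fingers between the ends of CTCF). The names of the LCL and CLC libraries carry a tag that those of the CTCF and CTCFL lines lack. For differences between lines, transgene, clone and set of libraries cannot be told apart. Beyond 400 kb the median log2 fold change against the untreated cells of the same line was -1.85 for CTCF, -1.78 for LCL and -1.86 for CLC. Dox without IAA gave medians of 0.18 in the CTCFL line and -0.16 in the CTCF line for the same genes.

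In the CTCF line treated with IAA and Dox together (ID), where Flag-CTCF stands in for the degraded protein, the median beyond 400 kb was -2.77, and 161 of the 192 such genes measured fell against untreated cells (8.77% of all genes fell and 4.33% rose). Genes over 200 kb took 0.696%, 0.694% and 0.704% of the reads of tested protein-coding genes in those 3 libraries. The shares were 1.26%, 1.09% and 1.08% in the CTCF line with IAA alone and 1.98% and 2.14% in its untreated cells. The lower share of long genes was present in that line both with and without the transgenic CTCF. In the LCL line the share was 0.923% and 1.02% with IAA and Dox, 0.970% and 0.979% with IAA alone, and 1.67% and 1.58% untreated. In the CLC line it was 1.23% and 1.39% with IAA and Dox, 1.06% and 0.842% with IAA alone, and 1.57% and 1.57% untreated. The cause of these differences was not tested. In the CTCFL line with IAA and Dox the median beyond 400 kb was -2.55, a comparison that shares its U libraries with the one described here.

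**Figure D3:**
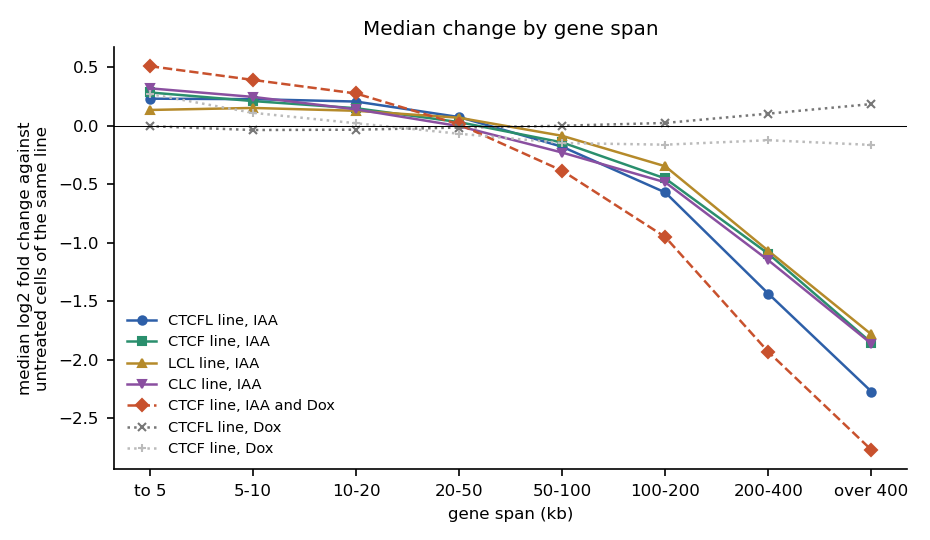
Median log2 fold change of protein-coding genes in 8 groups of genomic span (kb), each treatment against untreated cells of the same line. Lines join the medians of 1 comparison. The 4 IAA comparisons and the CTCF line with IAA and Dox go down beyond 50 kb, to between -1.78 and -2.77 past 400 kb, and the Dox comparisons stay between -0.16 and 0.27.

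A smaller set of fallen genes was short and had CTCF at the promoter. Sites were taken from FLAG ChIP-seq of the CTCF line under IAA and Dox, 32598 peaks present in both replicates. The core motif was searched as CCNNNAGNNGGC on both strands within 50 bp of the peak summit, and 34.3% of all sites hold it. The sequences give 30 bases (GRCm38) around the motif, 5′ to 3′ on the strand that carries it, with the motif in capitals. The 8 genes shown are examples, chosen after the values were seen, with the motif, a span of at most 100 kb and a site within 250 bp of a start site. In all, 81 fallen protein-coding genes have such a span and site, Bak1 and Nkd2, described below, among them. All 8 also fell in the CTCF line. There 65 of the 80 such genes measured fell, beside 5.36% of all genes.
Dennd6b, chr15:89196634-89196663, plus strand: ccgggtcggCCAGTAGGTGGCtagtgtggc
Pxylp1, chr9:96889534-96889563, plus strand: gagctccgcCCCGCAGGCGGCcgtgcggga
Car13, chr3:14641645-14641674, minus strand: cggtcgtcaCCCGCAGGGGGCgcccgagtg
Krtcap2, chr3:89246358-89246387, plus strand: tcctccttgCCACAAGAGGGCgctgcaccc
Ick, chr9:78113181-78113210, plus strand: gccgagcatCCGGGAGATGGCggtggtgca
Man2b2, chr5:36830642-36830671, minus strand: gcattcctgCCGACAGGCGGCgccgcgggt
Gfm1, chr3:67430022-67430051, plus strand: tcctcctgaCCAGGAGAGGGCgcgcgccac
Vps36, chr8:22192746-22192775, plus strand: gagtggcagCCGCCAGGGGGCgccgcctgt

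The summits of the 8 sites lie from -193 bp (Dennd6b) to 5 bp (Man2b2) from the annotated start, where negative values are upstream. Krtcap2, a subunit of the oligosaccharyltransferase that glycosylates proteins in the endoplasmic reticulum, was at 1240.2, 1082 and 1013 normalized reads in U and at 296, 321 and 316 in I of the CTCFL line (log2 fold change -1.83 ± 0.11, limma adjusted p = 1.68e-11). Gfm1, a mitochondrial translation elongation factor, fell from 2887, 3323 and 3089 to 952, 956 and 844 (-1.76 ± 0.09). Vps36, a subunit of the ESCRT-II sorting complex, fell from 1901, 1898 and 1822 to 592, 551 and 678 (-1.63 ± 0.08). The lysosomal mannosidase Man2b2 (-1.78), the carbonic anhydrase Car13 (-1.86), the kinase Ick (-1.81), the xylose phosphatase Pxylp1 (-2.42) and the Rab regulator Dennd6b (-2.96) fell as well, with no overlap between U and I in any of them.

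The RNA libraries of the CTCF line, whose ChIP-seq gave the sites but whose RNA values had no part in choosing these genes, have values with Flag-CTCF added back. Krtcap2 was at 1491 and 1118 in U of that line, at 227, 378 and 340.3 with IAA, and at 1342, 1638 and 1592 with IAA and Dox. ID exceeded I by 2.30 ± 0.14 log2 units (limma adjusted p = 5.13e-14). Man2b2 went from 901 and 1012 to 201, 176 and 161 with IAA, and stood at 709, 744 and 702 with IAA and Dox (ID minus I 2.00 ± 0.11). Dennd6b was higher by 2.04, Vps36 by 1.10 and Gfm1 by 1.07, all called risen. Car13 (0.91), Pxylp1 (0.42) and Ick (0.36) did not reach the threshold for ID against I.

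Among longer fallen genes with such a site within 3 kb of a start, 3 taken from those with the largest decreases are shown for comparison.
Map3k15, chrX:159988104-159988133, plus strand: gcgggggagCCGGCAGGGGGCgcccttggc
Cdk6, chr5:3344534-3344563, plus strand: ctccaccatCCGCGAGGTGGCggtgctgag
Mthfd1l, chr10:3973076-3973105, minus strand: gaactgaggCCCCTAGGGGGCactgtacca
Mthfd1l, a mitochondrial enzyme of folate metabolism that spans 194 kb, fell from 1837, 1810.3 and 1766 to 338, 385 and 248 (-2.50 ± 0.12, limma adjusted p = 9.60e-13). Cdk6, a cyclin-dependent kinase of the G1 phase that spans 189.5 kb, fell from 409, 440 and 379 to 97.0, 115 and 32.6 (-2.50 ± 0.28). Map3k15, a MAP kinase kinase kinase, fell from 256, 201 and 253 to 31.7, 36.9 and 36.2 (-2.72 ± 0.20). In the CTCF line their ID minus I values were -0.05, -0.31 and -0.02. Dennd6b (-2.96) and Pxylp1 belong to the genes chosen by that rule as well, with Cntln, Cemip, Frmd5 and Mllt3 (-2.15).

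Over all genes, a CTCF site within 3 kb of a start was held by 22.0% of the 16415 tested genes with a position, by 30.5% of the risen and by 29.4% of the fallen. At closer range the fallen stood apart from the risen: within 250 bp the shares were 6.42%, 7.91% and 15.5%. These are shares of genes and were not tested. Among protein-coding genes of up to 100 kb, 81 of 845 with a site within 250 bp fell (9.59%), against 2.38% with a site at 250 to 1000 bp, 1.17% at 1000 to 3000 bp and 1.13% beyond 10000 bp. The share that rose in the same groups was 4.85%, 6.43%, 6.45% and 3.17%. Genes over 100 kb fell in 51.9% of cases with a site within 250 bp and in 40.6% with none within 10000 bp.

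The motif was found at 34.3% of the 289 fallen genes with a site, at 35.7% of the 185 risen and at 37.5% of the 3145 not called. In RefSeq promoter windows, 250 bases before to 50 after each start (GRCm38), it occurred in 15.0% of those of fallen genes, 9.68% of risen, 12.2% of genes not called and 8.61% of all windows.

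With the fallen protein-coding genes divided by span and site, the CTCF line separated them. The 733 fallen genes over 100 kb that were measured there had a median log2 fold change of -1.45 with IAA and of -2.26 with IAA and Dox. ID minus I had a median of -0.78, with 6 genes risen and 212 fallen, where 1.43% of all genes rose and 2.86% fell. The 111 genes of up to 100 kb with a site within 3 kb had medians of -1.60 with IAA and -0.85 with IAA and Dox. Here ID minus I had a median of 0.97, with 48 risen and 0 fallen. The 96 of up to 100 kb without a site had medians of -1.14 with IAA, -1.24 with IAA and Dox and -0.10 for ID minus I, with 17 risen and 5 fallen. The differences from U and from I share the same ID libraries and are given side by side.

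**Figure D4:**
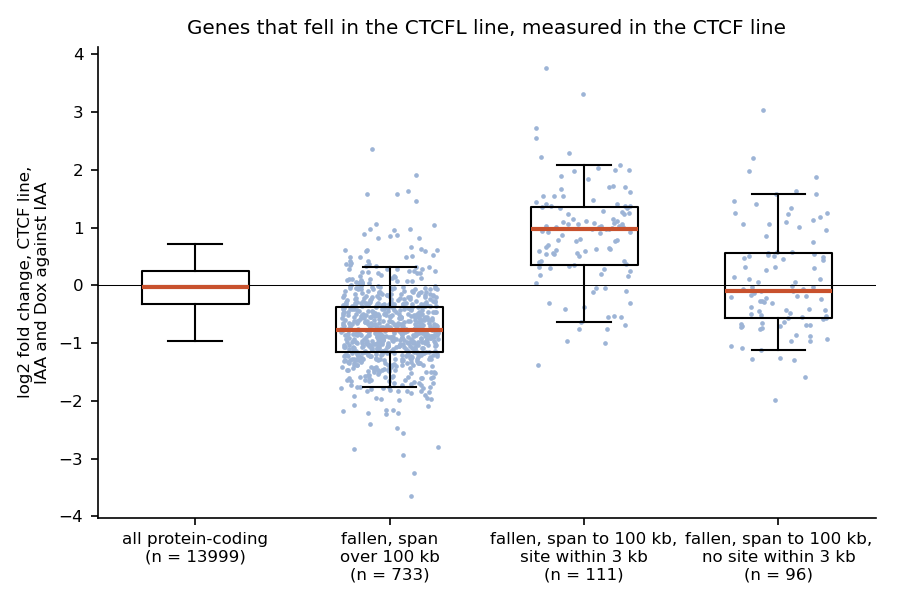
Log2 fold change of IAA and Dox against IAA in the CTCF line, where Dox induces Flag-CTCF, for all protein-coding genes and for 3 groups of genes that fell with IAA in the CTCFL line. Boxes give quartiles and median, whiskers the 5th to 95th percentile, and points single genes. Medians are -0.78 for long genes, 0.97 for shorter genes with a CTCF site at the start and -0.10 for shorter genes without.

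Start sites within 40 kb of a domain boundary, called by HiCratio on 1 Hi-C map of untreated CTCFL-line cells, were found for 25.4% of tested genes, 27.02% of the risen and 18.3% of the fallen. With the Crane caller the shares were 20.48%, 23.2% and 24.4%, so the place of the fallen genes in that order depended on the caller. Each condition has 1 domain file, so these shares carry no replicate check.

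The gene lists are described by counts and medians, to be read beside the 5.88% of all genes tested that fell, the 3.69% that rose and the median of 0.04, and no list was tested as a whole. These backgrounds vary with span, for which the lists were not matched. Protein-coding genes of up to 20 kb had a median of 0.22, with 5.98% risen and 1.04% fallen. Those over 100 kb had a median of -0.84, with 0.365% risen and 38.9% fallen. Of 28 naive pluripotency factors tested, 5 fell and 1 rose, 23 lay below 0 and the median was -0.39. Nr5a2, a nuclear receptor that acts upstream of Pou5f1, was at 5444, 6241 and 5876 in U and at 1755, 1688 and 1786 in I (-1.75 ± 0.08, limma adjusted p = 1.58e-13). Fgf4, a growth factor gene driven by Sox2 and Pou5f1, fell from 9727, 9112 and 9530 to 4273, 4356 and 4009 (-1.17 ± 0.06). Nr0b1 (-1.28) and Tcl1 (-1.11) were among the others that fell. Esrrb (-0.96) and Sox2 (-0.86) passed the adjusted p but not the fold threshold. Pou5f1 was at -0.32, Nanog at -0.16 and Klf4 at 0.03. Dppa3, a maternal factor that protects DNA methylation in the early embryo, rose, from 1597, 1621 and 1474 to 2967, 3157 and 4101 (1.11 ± 0.11).

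Genes of the 2-cell stage, which a small share of cultured embryonic stem cells expresses at any time, moved the other way. Of 24 listed, 16 were tested. Of these, 10 rose, none fell and the median was 2.33, with 15 above 0. Members low in U can pass the minimum mean through the groups where they are high, so the count and the median depend on that filter. Zscan4d was at 29.6, 50.4 and 17.4 in U and at 140, 146 and 223 in I (2.44 ± 0.43, limma adjusted p = 8.55e-05), and Zscan4c, Zscan4e and Zscan4f rose as well. Of the Usp17l deubiquitinases, Usp17le rose from 59.2, 59.3 and 60.4 to 320, 334 and 357 (2.48 ± 0.25). Usp17la, Usp17lc and Usp17ld, with Gm8300 and Sp110, complete the 10 on the list. Usp17lb, a family member that the list does not hold, rose from 36.4, 46.4 and 59.2 to 342, 374 and 395 (2.97 ± 0.23). Zscan4 and Usp17l are families of near-identical copies, so the split of reads between members is uncertain, and the members are not independent counts.

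Clustered protocadherins, whose promoter choice in neurons runs through CTCF sites, were barely expressed. Of 57 listed, 31 were at 0 in all 6 libraries and 10 were tested, with 2 fallen and a median of -2.35. Of the 10 tested, 8 lay below 0 and 2 above. Pcdhga11 was at 21.5, 49.4 and 26.7 in U and at 5.59, 0 and 0 in I, and Pcdhga3 at 8.08, 16.8 and 23.2 in U and at 0.93, 0 and 0.91 in I. Both counts are low, and the isoforms of the gamma cluster share exons, so their counts are uncertain. Members this low can pass the minimum mean only through the groups where they are high, so the median depends on that filter.

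Among imprinted genes, whose parental expression at several loci depends on CTCF, 7 of 56 fell (5.88% of all genes) and 2 rose (3.69% of all genes), with a median of 0.00. Rian, a noncoding RNA of the Dlk1-Dio3 locus, fell from 3455, 3618 and 3563 to 1506, 1409 and 1475 (-1.28 ± 0.07, limma adjusted p = 3.32e-12), and Mirg of the same locus fell by 1.97 on the log2 scale. Dio3, the thyroid hormone deiodinase at the other end of that locus, rose from 178, 167 and 167 to 822, 821 and 752 (2.22 ± 0.15). Trappc9 (-2.44), Ppp1r9a (-3.73), Sfmbt2 (-1.08), Sgce (-1.30) and Grb10 (-1.004) were the others that fell, and Nap1l5 rose (1.34). The Trappc9 gene spans 472 kb. Of 30 Hox genes tested, Hoxb7 (1.22) and Hoxc9 (1.59) rose and none fell by limma, with a median of 0.41, 13 at an unadjusted p under 0.05, and 2 fallen by DESeq2.

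Of 22 cohesin subunits and regulators 2 fell, near the share of all genes (5.88%), with a median of -0.12. Smc1b, the meiotic cohesin subunit, fell from 1721, 1901 and 1906 to 841, 818 and 927 (-1.10 ± 0.09), and Hdac8, which deacetylates Smc3, fell by 1.58. Rec8, the meiotic kleisin, was at 2125, 2081 and 2076 in U and at 4189.6, 4339 and 3969.5 in I, a log2 fold change of 0.99 that stopped short of the threshold. Nipbl (-0.63), Stag1 (-0.54) and Pds5a (-0.61) passed the adjusted p alone. None of 23 CTCF partners and architectural factors was called by limma, with a median of -0.13 and 11 at an unadjusted p under 0.05, while edgeR called 2 fallen and DESeq2 1. In the meiotic and germline list 2 of 40 rose and 2 fell: Tex101 (1.60) and Stra8 (1.37) were higher, and Smc1b and the protease Prss41 (-3.39) lower.

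Of 30 Wnt genes 4 rose and 4 fell, beside 3.69% risen and 5.88% fallen of all genes. Nkd2, an inhibitor of Dishevelled, was at 86.2, 106 and 75.5 in U and at 8.39, 2.00 and 2.72 in I (-4.24 ± 0.37, limma adjusted p = 8.04e-09). Rnf43 (-1.87), the transcription factors Tcf7l2 (-1.49) and Lef1 (-1.61) also fell, and Cdx1 (1.75), Wnt4 (2.66), Wnt7a (3.40) and Fzd1 (1.19) rose. Wnt7a went from at most 2.69 to between 19.6 and 24.4 normalized reads. This low in U, it could pass the minimum mean only through the groups where it is high, so its place among the 4 risen depends on that filter. Of 31 Nodal and TGF-beta genes 2 rose, among them Lefty1 (1.60), and none fell. In the Notch list 1 of 21 rose, the feedback inhibitor Nrarp (1.71). In the FGF and MEK list 2 of 28 fell, Fgf4 and Fosb (-1.38). The Nodal, Notch and FGF counts are near the shares over all genes.

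Bak1, which permeabilises the outer mitochondrial membrane in apoptosis, fell from 1581, 1685 and 1283 to 258, 239 and 317 (-2.48 ± 0.11, limma adjusted p = 4.55e-13) in a gene that spans 9.2 kb. Bcl2, its antagonist, fell by 1.73, and these were the 2 of 27 apoptosis genes that fell, near the 5.88% of all genes, with none risen. Among 56 cell cycle genes, Cdk6 and Pola1, the catalytic subunit of DNA polymerase alpha, fell and Cdkn2c (1.03) rose, with a median of 0.02. Pola1 spans 327 kb and fell from 2185, 2257 and 2260 to 611, 539 and 438 (-2.09 ± 0.11). Of 35 p53 targets, Plk3 rose (1.24), none fell and the median was 0.30, while Cdkn1a, the best known of them, stood at -0.40. In the MYC network Mycn fell (-1.18) and Mxd4 rose (1.24) of 27.

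Of 22 cholesterol synthesis genes none was called by limma, edgeR or DESeq2, 16 were at an unadjusted p under 0.05, 19 lay below 0 and the median was -0.45, led by Cyp51 (-0.91) and Hmgcs1 (-0.79). Of 87 ribosomal protein genes 85 lay below 0 with a median of -0.24, and Rpl36 (-1.08) was called. In glycolysis 2 of 23 fell, the glucose transporter Slc2a1 (-1.03) and Hk2 (-1.19), which went from 14086, 13576 and 14994 to 6746, 6292 and 5711. In the interferon and antigen presentation list 2 of 25 rose, Tap1 (1.05) and Psmb8 (2.04), with a median of 0.50. No call was made by limma, edgeR or DESeq2 among heat shock genes (18 tested, 13 at an unadjusted p under 0.05), unfolded protein response genes (21 and 11), DNA methylation genes (20 and 8) and mitochondrially encoded genes (9 and 2).

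Genes of differentiated lineages showed no common direction. Of 16 neuroectoderm genes 3 fell: Map2 (-2.96) and Ncam1 (-1.82), which span 267 and 297 kb, and the short gene Neurog3 (-2.82). Nes (0.61) and Nefl (0.74), both under 10 kb, were higher without reaching the threshold. Of 15 genes of the formative and primed state Otx2 (-1.46), Cdh2 (-2.34) and Lef1 fell. None of 24 mesoderm and endoderm genes was called by limma, edgeR or DESeq2, with 12 at an unadjusted p under 0.05, and of 16 trophoblast genes Krt7 rose (1.26). Of 33 Polycomb genes Cbx8 rose (1.03), and of 10 fibroblast genes Col6a2 rose (1.78).

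**Figure D5:**
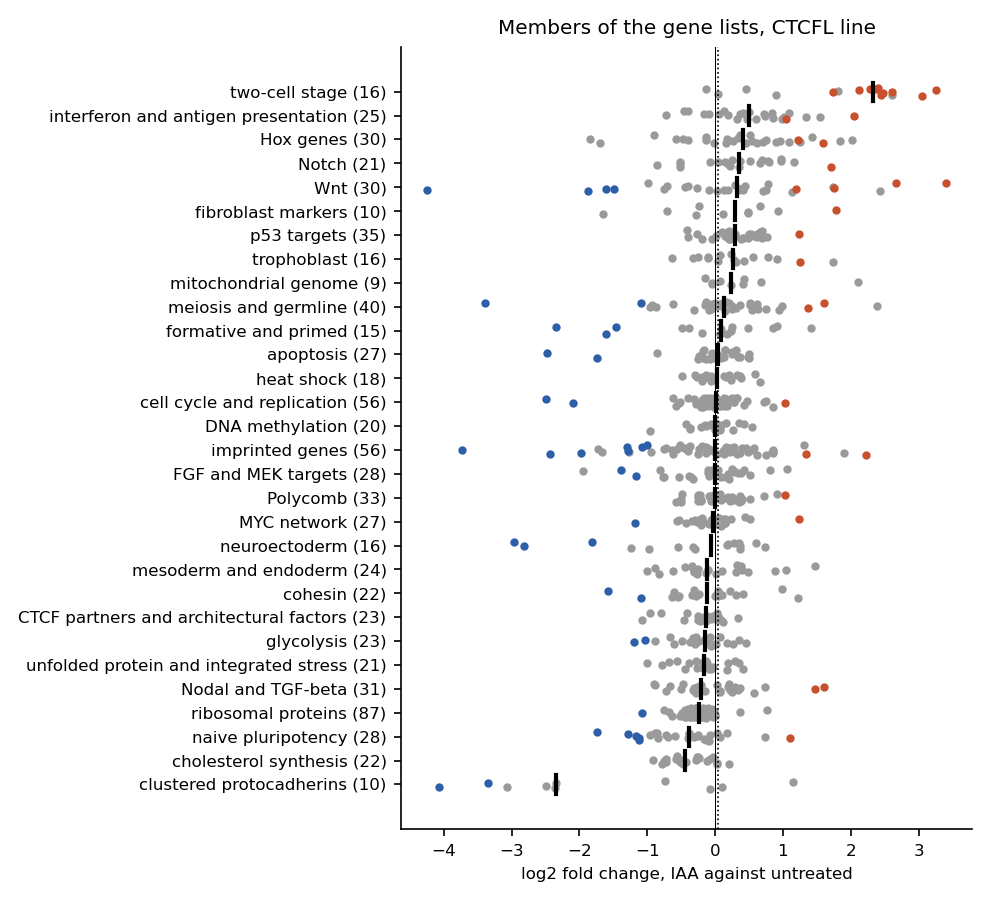
Log2 fold change with IAA in the CTCFL line for tested members of 30 gene lists (number tested in parentheses), ordered by median. Orange points rose, blue points fell and grey points were not called. Black bars are list medians and the dotted line the median of all genes tested (0.04). The 2-cell-stage list (2.33) and the clustered protocadherins (-2.35) lie at the ends. The protocadherin median rests on 10 genes, several of them near the minimum mean for testing. Both of these list medians depend on which members passed that minimum.

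Whether the response to IAA differed between lines was tested as a difference between lines in 1 fit over all 38 RNA libraries. Of 16480 genes, 40 responded more positively in the CTCFL than in the CTCF line (0.243%) and 21 more negatively (0.127%). These counts rest on few libraries: they were 23 and 9 with the U and I libraries of both lines alone, 18 and 6 without CTCF U replicate 2, and 0 and 0 with the replicate block (limma; 1520 genes at an unadjusted p under 0.05). Vav3, a guanine nucleotide exchange factor for small GTPases, was at 86.2, 125 and 163 in U and 9.32, 5.99 and 11.8 in I of the CTCFL line, and at 59.5 and 97.2 in U and 77.4, 69.3 and 68.7 in I of the CTCF line (difference -3.56 ± 0.61, limma adjusted p = 0.000487). Mlph, the melanosome linker melanophilin, rose in the CTCFL line, from 25.6, 8.89 and 12.8 to 67.1, 76.9 and 61.5. In the CTCF line it was at 68.1 and 70.7 in U and at 52.3, 68.2 and 44.4 in I, which overlap (difference 2.53 ± 0.55, limma adjusted p = 0.00574). Untreated cells of the CTCF line were thus already near the IAA level of the CTCFL line. Ubap1l was between 195 and 354 in all 6 CTCFL-line libraries and fell in the CTCF line from 554 and 599 to 189, 203 and 153 (difference 1.97 ± 0.24, adjusted p = 5.85e-06).

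The leading genes of the CTCFL line were mostly called in the other lines too. All 10 leading fallen genes fell with IAA in the CTCF line, where 5.36% of genes fell, and in the LCL (5.44% of all) and CLC (6.65%) lines. Of the 10 leading risen genes 9 rose in the CTCF line (3.71% of all), 5 in LCL (4.76%) and 8 in CLC (8.21%). Their sizes were not always equal: against the CTCF line the fall of Fmn2 and Slit2 was larger in the CTCFL line, and 4 of the 10 fallen genes differed from LCL and 4 from CLC. The 10 were chosen for the largest falls in the CTCFL line, and the difference uses the same libraries, so the choice favours larger falls there. Against LCL, 228 genes responded more positively (1.38%) and 243 more negatively (1.47%), and against CLC 198 (1.2%) and 400 (2.43%). The LCL and CLC lines differ from the CTCFL line by clone and by the tag in their library names as well as by transgene.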

How the data were processed

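PolyA RNA was sequenced and aligned by the authors to GRCm38 with STAR. HTSeq is named in the submitters' processing notes, and the strand setting of counting is not given in the sources used here, so reads of antisense partners may be mixed. The deposited table gives the normalized signal of 52459 genes in 38 libraries, gene counts divided by 1 size factor per library. Whole reads were recovered for 100% of values of up to 500 reads, within 0.1 read. Log2(value + 1) was fitted with limma 3.58.1 (mean of at least 10) over the 11 libraries of the CTCFL line, with Benjamini-Hochberg adjustment; differences between lines used all 38 libraries. edgeR 4.0.16 and DESeq2 1.42.0 were run on the recovered reads. Peaks called by the authors with MACS per replicate, with their deposited -log10 q values, and the authors' deposited Hi-C domains were set against GENCODE start sites (97.5% of tested genes matched by symbol). Sequences and promoters are from RefSeq, GRCm38. Genes were named as the 10 with the largest change in each direction (mean of at least 100, groups not overlapping, no unnamed models), up to 5 members per list with the lowest p, 5 per direction for the line difference, and the 10 most fallen with a motif-bearing site. Members and lists were chosen with earlier results of these data known. A few items are not reported here. The linear model was tested on simulated data.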

Additional observations from a re-analysis of the deposited data

Results flagged for a closer look

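The effect of IAA differed between cell lines for some genes, by the test of the difference itself (limma over 38 libraries). Against the CTCF line 40 genes were higher and 21 lower in the CTCFL line, against LCL 228 and 243, and against CLC 198 and 400. The first pair of counts was 23 and 9 with the U and I libraries of both lines alone, 18 and 6 without CTCF U replicate 2, and 0 and 0 with the replicate block (limma; 1520 genes at an unadjusted p under 0.05). The log2 difference between the CTCFL and CTCF lines was -3.56 for Vav3, -2.72 for Fbxo32, -1.94 for Fmn2, -1.69 for Mgat4c and -1.56 for Mbnl3. Slit2 (-1.35) and Dio3 (-1.16) were lower as well, Dio3 having risen in both lines. It was 2.53 for Mlph, 1.97 for Ubap1l, 1.73 for Cnpy1, 1.73 for Aldh1l2 and 1.70 for Mroh4. Ctcfl (1.502), Smc1b (1.10) and Nupr1 (1.02) were also higher. Ctcfl fell by 1.56 on the log2 scale in the CTCF line and overlapped between groups in the CTCFL line. The CTCFL line also carries a Ctcfl transgene, and gene counts there do not separate its reads from those of the endogenous gene.

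Among the leading genes and the naive pluripotency genes, the CTCFL line differed from LCL in Fmn2 (-1.99), Nr5a2 (-1.60), Ppp1r9a (-1.52), Elmo1 (-1.47), Slit2 (-1.47), Pxylp1 (-1.38) and Fgf4 (-1.12), and on the other side in Prrt3 (1.46), Angptl2 (1.62), Dennd6b (1.76) and Usp17lb (2.10). It differed from CLC in Fmn2 (-2.70), Elmo1 (-1.76), Slit2 (-1.65), Pxylp1 (-1.51), Ppp1r9a (-1.44) and Nr5a2 (-1.34), and in Prrt3 (1.27) and Map3k15 (2.46). Nr5a2 changed by -0.14 in LCL and -0.40 in CLC with IAA, neither of which was called. As the leading genes were chosen by their change in the CTCFL line, the choice favours larger changes in that line. The LCL and CLC lines have 2 libraries per group. They are separate clones, and their library names carry a tag that those of the CTCFL line lack.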

How the results depend on the processing

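The counts of risen and fallen genes stayed within 1.5 times the reported ones under a pseudocount of 5, a minimum mean of 50, TMM scaling, fits on 6 or 38 libraries, edgeR and DESeq2, except that 337 genes rose with no filter on low values. Leaving out each library in turn gave 488 to 584 risen and 889 to 989 fallen. The numbers shared by U and I libraries did not pair them (correlations of deviations from -0.06 to -0.02), and the replicate block gave 584 and 943. Of 70 called genes named by the rules, 60 were called under every setting and 0 changed sign. Ctcfl, not called, ranged from -0.13 to 0.029 leaving out each library, above 0 without I replicate 3 and without U replicate 2.

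The difference from the CTCF line rests on few libraries. It gave 23 higher and 9 lower genes with the U and I libraries of both lines alone, and 0 and 0 with the replicate block (limma; 1520 genes at an unadjusted p under 0.05). Leaving out each library gave 18 to 40 higher and 6 to 30 lower, with 18 and 6 without CTCF U replicate 2, which leaves 1 untreated CTCF library assumed to vary like the others, and 13, 12 and 11 lower without CTCFL I replicate 3, CTCF I replicate 2 and CTCF I replicate 3. The cause was not tested.

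The fallen share of genes over 200 kb, an alternative set chosen after seeing the data, was 50.0% with no filter, 70.5% at a minimum mean of 50, 67.9% with 38 libraries and 58.5% to 63.2% leaving out each library. Site shares in the order risen, fallen, all were 16.0%, 21.6% and 12.001% within 1 kb, 36.1%, 39.9% and 29.6% with the CTCF D peaks and 34.9%, 34.96% and 27.2% with replicate 1 alone, and with a -log10 q of at least 5 the share of all was 20.9%. Boundary shares were 47.0%, 33.8% and 44.5% within 100 kb, and 23.2%, 24.4% and 20.48% with Crane.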

Other observations

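Fallen genes often lay next to each other. A neighbouring tested gene that had also fallen was found for 26.9% of the 984 fallen genes with a position, for 7.08% of the 607 risen and for 10.4% of the genes not called. A risen neighbour was found for 14.3% of the risen genes, 4.47% of the fallen and 7.08% of those not called. By chromosome, 9.30% of the 602 tested genes on chromosome X and 9.15% of the 579 on chromosome 13 fell, and 2.56% of the 1369 on chromosome 11 and 2.75% of the 546 on chromosome 19. These shares are descriptions and were not tested.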
